A study of Mus musculus with 8 samples.

Results

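The cytosolic ribosomal proteins are the protein parts of the ribosome that works in the cytoplasm, and their genes were followed here in the CTL-EN mouse T cell line. Members were all genes with a symbol that begins Rpl or Rps followed by a digit, together with Rplp0, Rplp1, Rplp2 and Rpsa, and without the Rps6k kinases. The rule found 73 genes of 15096 named genes, measured by 81 of 21779 placed probes. One of them, Rps19bp1, encodes a binding protein of Rps19 and not a ribosome part, and was counted apart. The other 72 genes were 39 of the large subunit, 23 of the small subunit, 7 paralogues of ribosomal protein genes, 2 pseudogenes and 1 retrogene (Rps23rg1). Rps27 and Rps27a had no matched probe and were not used here. The symbols, not measured values, chose the members.

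The cells expressed the human GM-CSF receptor beta chain either with a serine replaced by glycine (Ser585Gly) or as the wild type. GM-CSF is a cytokine that keeps many blood cells alive, and the beta chain is the signalling part of its receptor. There were 4 RNA sources: Ser585Gly cells after 12 h with human GM-CSF (50 ng/mL), Ser585Gly cells at 0 h, wild-type cells after the same 12 h, and wild-type cells at 0 h. All 4 had gone without factor for 12 h in RPMI medium with 0.5% CS, so the 0 h state is a starved state and no group of growing cells is part of the comparison. The RNAs were compared on 8 2-colour spotted oligonucleotide arrays along 4 edges of a square, each edge on 2 arrays with the dyes exchanged. The labels name no separate cultures, clones or extracts, so a p-value here measures the spread between hybridisations only. In bulk RNA of this kind, fewer cells of a type and less RNA per cell cannot be told apart.

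Each ribosome holds a single copy of most of its proteins, and their mRNAs are among the most abundant in a growing cell. In vertebrates these mRNAs begin with a run of pyrimidines after a C, the 5′ terminal oligopyrimidine or TOP motif, through which growth signals set how well they are translated, largely without a change in mRNA level. New ribosomes are put together in the nucleolus by a separate set of assembly factors, whose mRNAs are known to respond to growth signals.

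The starts of a few members are printed to show runs of C and T near the annotated start in genes on which the results turn. Each sequence runs from 10 bases before the annotated start to 20 bases from it, 5′ to 3′ on the gene's own strand, from RefSeq on build GRCm38.p6. Capitals mark the longest run that begins with C within the search window and goes on with 4 or more C or T, and shorter runs are left in lower case. A marked run need not be a TOP motif. That of Rps27l ends before the annotated start, those of Rpl22l1 and Rpl3l begin inside the transcript, and Rpl37, Rpl24 and Rpl7l1 have none. The coordinates are chr2:26910797-26910826 (+) for Rpl7a, chr11:114668570-114668599 (+) for Rpl38, chr4:86857348-86857377 (-) for Rps6, chr15:5116603-5116632 (+) for Rpl37, chr16:55966265-55966294 (+) for Rpl24, chr17:46782637-46782666 (-) for Rpl7l1, chr9:66946076-66946105 (+) for Rps27l, chr3:28805498-28805527 (+) for Rpl22l1 and chr17:24727816-24727845 (+) for Rpl3l.
Rpl7a: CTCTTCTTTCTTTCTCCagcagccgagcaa
Rpl38: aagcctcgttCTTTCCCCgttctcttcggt
Rps6: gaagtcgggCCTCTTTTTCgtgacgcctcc
Rpl37: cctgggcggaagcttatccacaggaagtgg
Rpl24: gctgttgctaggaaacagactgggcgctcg
Rpl7l1: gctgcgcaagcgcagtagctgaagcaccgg
Rps27l: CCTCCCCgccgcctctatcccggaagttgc
Rpl22l1: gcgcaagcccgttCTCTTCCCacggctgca
Rpl3l: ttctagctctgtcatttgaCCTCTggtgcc

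A run of this kind, beginning within 10 bases of the annotated start, was found in 31 of the 58 members that could be matched to the table, or 53.4%. Over all 27025 genes of the table it was found in 8322, or 30.8%. It was present in 16 of 31 large-subunit genes, in 10 of 20 small-subunit genes and in 4 of 6 paralogues. One annotated start per gene, the most 5′, was read, and a gene without a run in this window may have it at another start. The match describes letters only.

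Values are log2 ratios after background correction and scaling, turned so that Ser585Gly or 12 h is on top. Gene names rest on a print order recovered from the data, which was chosen in part because abundant families such as this one fell on bright spots. That the members were bright (64 of 72 above the 90th brightness percentile) is therefore no finding. The 9 T cell markers had a median brightness percentile of 85.2, from Cd4 at 1.21 to Thy1 and Cd3g, both at 99.2. The B cell markers had a median percentile of 29.4 (4 genes) and the myeloid markers one of 17.0 (4 genes). The 2 erythroid markers had a median of 56.5, with Hba-a1 at 77.2 and Klf1 at 35.8. The median foreground intensity of an array lay between 631 and 946 in Cy5, and between 795 and 1105 in Cy3. Between 5 and 19 members per array had a dye above 50000 units, near the top of the scanner range, where ratios are pressed towards 0. Across all probes the 2 arrays of a comparison had a Pearson correlation of 0.51 in each cell line over time, and of 0.22 at 12 h and 0.12 at 0 h between the cell lines. Across the 72 members it was 0.25 in Ser585Gly and 0.65 in wild type over time, and 0.27 at 12 h and 0.13 at 0 h between the cell lines, where probes share arrays and are not replicates.

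One array stood apart. On replicate 1 of Ser585Gly over wild type at 0 h, the median log2 ratio of all probes in a print block ran from -1.0 to 0.40 over the 48 blocks when 1 loess curve was fitted to the whole array. The lowest block median on the other 7 arrays lay between -0.37 and -0.16. On that array 13 members were under -0.9, and 12 of them lay in 3 blocks with medians of -0.78, -0.81 and -1.0. These 12 included Rpl10a at -1.59, Rpl13 at -1.55, Rpl10 at -1.52, Rps3a1 at -1.49 and Rps6 at -1.16, while all 12 lay between -0.49 and 0.10 on the dye-swapped array. With 1 loess curve per print block the same 12 members lay between -0.83 and 0.15 on replicate 1. Rpl24 was the 13th, at -1.31 in a block with a median of 0.15, and it stayed at -1.17 with block-wise curves. For this reason values are given array-wise (1 curve per array, the main scaling) and block-wise (1 curve per print block) below, and those at 0 h that passed also without that array.

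**Figure D1:**
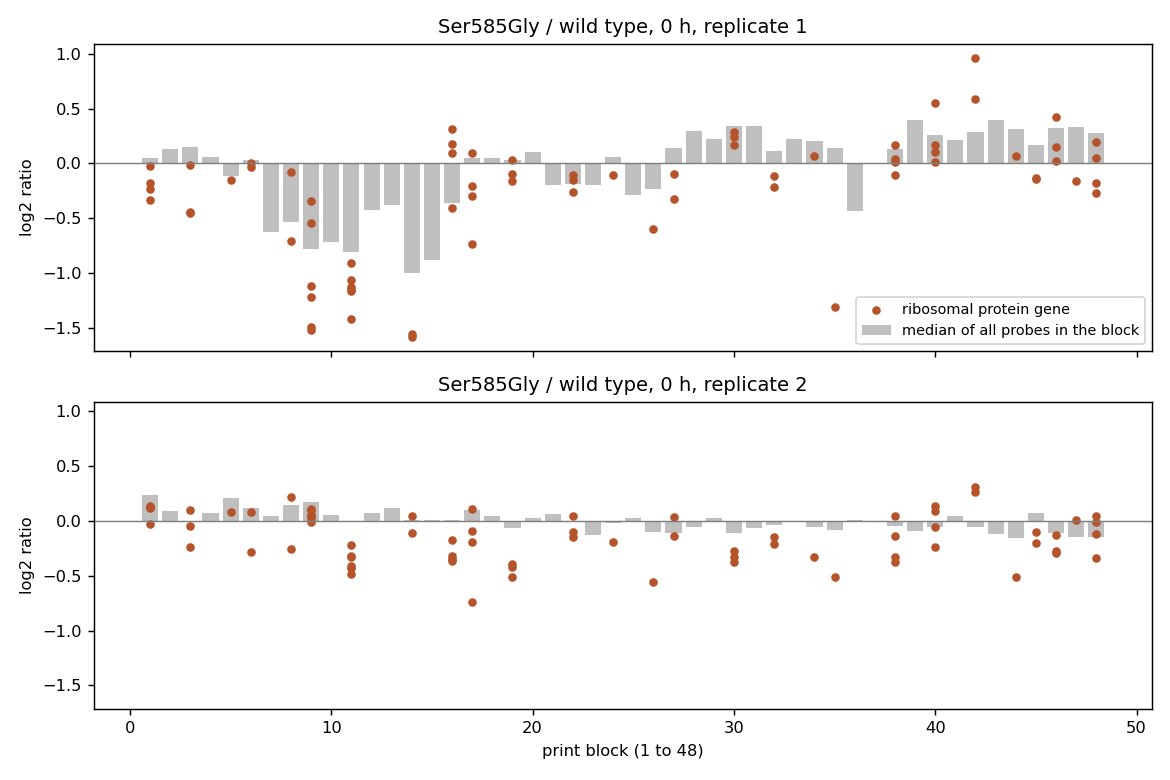
Log2 ratios of the 72 members on the 2 arrays of Ser585Gly over wild type at 0 h, against the print block that holds each member, with the median of all probes of a block as a bar. On replicate 1, 12 of the 13 members under -0.9 sit in 3 blocks whose own medians are -0.78, -0.81 and -1.0.

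Taken as a family, the ribosomal protein mRNAs sat slightly below 0 in each direct comparison, by less than 0.16 on the log2 scale at the median. The median of the 72 genes per array was -0.09 and -0.08 on the 2 arrays of Ser585Gly over wild type at 12 h, and -0.14 and -0.14 on those at 0 h. It was -0.08 and -0.05 on the arrays of 12 h over 0 h in Ser585Gly, and -0.13 and -0.09 on those in wild type. On every array more members lay below 0 than above it, between 44 and 58 of 72. Block-wise curves left the medians between -0.13 and -0.04, with 45 to 51 members below 0.

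**Figure D2:**
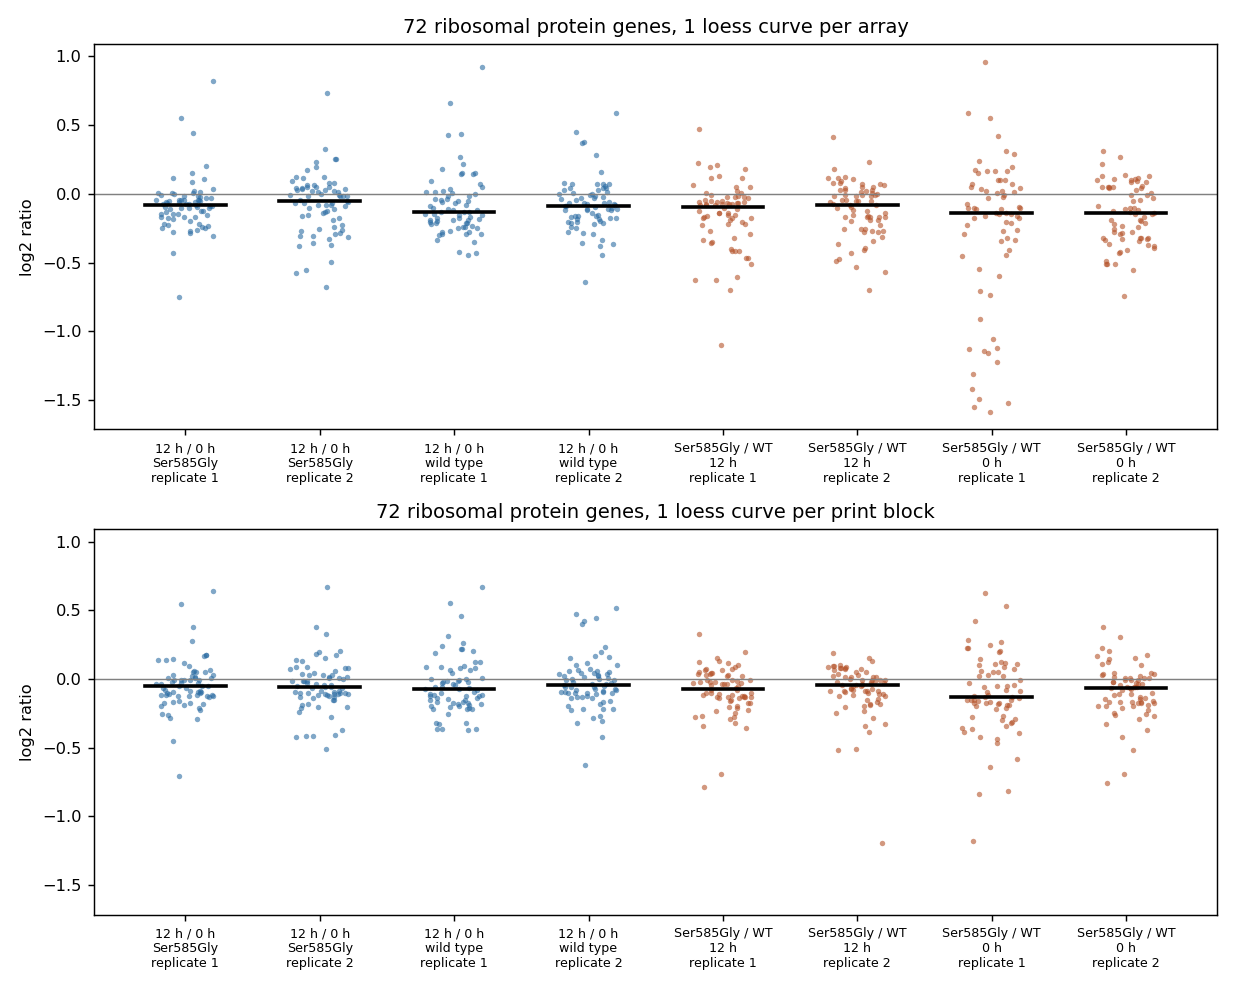
Log2 ratios of the 72 members on each of the 8 arrays, 1 point per gene with the median as a bar, under array-wise (top) and block-wise (bottom) scaling. Array-wise medians lie between -0.14 and -0.05, and the spread of members is widest on replicate 1 of Ser585Gly over wild type at 0 h.

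In the joint fit of all 8 arrays the median of the members was -0.14 for Ser585Gly against wild type at 12 h, with 61 of 72 genes below 0, and -0.16 at 0 h, with 60 below 0. The medians of all probes were -0.0090 at 12 h and -0.0016 at 0 h. For 12 h against 0 h the members' median was -0.07 in Ser585Gly (49 below 0) and -0.13 in wild type (57 below 0), and the medians of all probes were 0.0082 and -0.011. Probes as bright as the members but without a ribosomal protein name (376, above the 98th percentile) had medians of -0.02 at 12 h and -0.04 at 0 h between the cell lines. Block-wise, the members' medians were -0.08 at 12 h and -0.08 at 0 h between the cell lines, and -0.06 in each cell line over time. The large and small subunits had similar medians for Ser585Gly against wild type, at -0.15 and -0.15 at 12 h and at -0.20 and -0.15 at 0 h. These medians are descriptions without a test.

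Few single members passed the test (limma, two-sided, Benjamini-Hochberg over all 21779 probes, adjusted p under 0.05). For 12 h against 0 h in Ser585Gly 2 of 72 members passed, or 2.78%, where 10.5% of all probes did. In wild type 3 passed, or 4.17%, against 9.46% of all probes. For Ser585Gly against wild type 1 passed at 12 h, or 1.39%, against 1.72% of all probes, and 4 passed at 0 h, or 5.56%, against 4.07%. No member passed for the difference between the 12 h responses of the cell lines, where 0.0551% of all probes passed. For this difference 5 of 72 members and 1527 of all 21779 probes had an unadjusted limma p under 0.05. Without adjustment, 13, 10, 15 and 23 of 72 members were under 0.05 in the 4 comparisons in this order. Of all 21779 probes, 5211, 5223, 2840 and 4909 were. Block-wise, 10, 6, 2 and 5 members passed, or 13.9%, 8.33%, 2.78% and 6.94%, against 19.6%, 18.7%, 4.56% and 9.37% of all probes, and 2, 2, 1 and 3 of them had passed array-wise too. For the difference, 0 members passed block-wise in limma, against 0.225% of all probes, and 3 had an unadjusted p under 0.05. In data simulated for this design, 200 of 21779 probes were changed in 1 comparison and the rest were not. At a log2 change of 0.5, 0% of the changed probes were recovered. At a change of 1, 82% were recovered for Ser585Gly against wild type at 0 h and 72% for 12 h against 0 h in wild type. In the real data 886 and 2061 probes passed in these 2 comparisons, and some ratios smaller than 0.5 passed. The simulated shares therefore do not carry over to the counts above.

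Rpl7a, a large-subunit protein that binds ribosomal RNA, was lower in Ser585Gly cells than in wild-type cells at both times. At 12 h its log2 ratio was -1.10 on replicate 1 and -0.54 on replicate 2, and at 0 h it was -0.74 and -0.74. All 4 arrays that set Ser585Gly against wild type were negative, while the 4 arrays over time lay between -0.11 and 0.01. The fitted ratio was -0.80 ± 0.12 at 12 h (SE, 0.574-fold, limma adjusted p = 0.0163) and -0.76 ± 0.12 at 0 h (0.591-fold, adjusted p = 0.0157). Block-wise it was -0.62 at 12 h (adjusted p = 0.00431) and -0.64 at 0 h (adjusted p = 0.00318). Without the array that stood apart, block-wise values were -0.62 (adjusted p = 0.00907) and -0.63 (adjusted p = 0.0262), and array-wise values were -0.82 (adjusted p = 0.0142) and -0.81 (adjusted p = 0.0522). With each dye swap averaged first, adjusted p was 0.0497 at 12 h and 0.0466 at 0 h. For GM-CSF over time Rpl7a had -0.08 in Ser585Gly and -0.04 in wild type, and neither passed.

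Rpl24, a protein at the interface where the large subunit meets the small one, had negative ratios on all 4 arrays that set Ser585Gly against wild type. Its values at 12 h were -0.17 and -0.37, and at 0 h -1.31 and -0.51. The fitted ratio was -0.48 ± 0.19 at 12 h (SE, limma adjusted p = 0.347) and -0.70 ± 0.19 at 0 h (adjusted p = 0.0852), which did not pass. Block-wise the array values were -0.79 and -0.52 at 12 h and -1.17 and -0.76 at 0 h, and the fitted ratio passed at both times, with -0.78 (adjusted p = 0.0217) and -0.84 (adjusted p = 0.0121). Without the array that stood apart the block-wise ratio was -0.71 at 12 h (adjusted p = 0.0188) and -0.61 at 0 h (adjusted p = 0.0711). All 4 arrays had the same sign under both scalings, and the call depended on the scaling.

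Members in the 3 low blocks had ratios closer to 0 at 0 h under block-wise scaling. Rpl36a had the lowest fitted ratio of the family at 0 h, with -0.78 ± 0.18 (limma adjusted p = 0.0531), and block-wise had -0.24 (adjusted p = 0.0816). Rps6, the small-subunit protein that S6 kinases phosphorylate when growth signals are on, had -0.60 (adjusted p = 0.0845) and block-wise -0.08 (adjusted p = 0.455). Rpl10, which joins the large subunit late as it matures, had -0.61 and block-wise -0.32, and Rpl10a had -0.67 and block-wise -0.04. Rpl5, which carries 5S RNA with Rpl11 and together with it can bind Mdm2, had -0.57 (adjusted p = 0.0776) and block-wise 0.02. Rpsa, also known as a laminin receptor, had -0.47 and block-wise -0.20. Rpl13 had -0.61 and block-wise 0.03.

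The 7 paralogues of ribosomal proteins accounted for both array-wise calls over time in Ser585Gly and for 3 of the 4 calls between the cell lines at 0 h. Rpl7l1, which resembles Rpl7 and whose protein in human cells sits in precursors of the large subunit, was higher at 12 h than at 0 h in both cell lines. Its log2 ratio was 0.55 and 0.19 on the arrays of Ser585Gly, and 0.66 and 0.38 on those of wild type. The fitted ratio was 0.39 ± 0.10 in Ser585Gly (1.31-fold, limma adjusted p = 0.0463) and 0.51 ± 0.10 in wild type (1.42-fold, adjusted p = 0.0183). Block-wise it was 0.48 (adjusted p = 0.00227) and 0.47 (adjusted p = 0.00264). Rpl7 itself, the core protein, had -0.09 in Ser585Gly and 0.03 in wild type, and neither passed.

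Rps27l, a paralogue of Rps27 that p53 is known to induce in human cells, was higher at 12 h in Ser585Gly cells and lower in Ser585Gly than in wild-type cells at 0 h. Over time its ratios were 0.44 and 0.73 in Ser585Gly, and 0.44 and 0.28 in wild type. The fitted ratio over time was 0.54 ± 0.11 in Ser585Gly (1.45-fold, limma adjusted p = 0.0174) and 0.41 ± 0.11 in wild type (adjusted p = 0.0513). Block-wise both passed, with 0.51 (adjusted p = 0.00783) and 0.46 (adjusted p = 0.0125). Between the cell lines at 12 h the arrays gave -0.70 and -0.40, with a fitted -0.50 (adjusted p = 0.0708). At 0 h they gave -0.60 and -0.56, with a fitted -0.63 ± 0.11 (adjusted p = 0.0205), which block-wise was -0.36 (adjusted p = 0.0531). The ratio at 0 h was -0.69 without the array that stood apart (adjusted p = 0.0530), and block-wise -0.48 (adjusted p = 0.0576). The 12 h responses of the cell lines did not differ past the threshold (0.13, adjusted p = 0.819).

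Rpl22l1 is the paralogue of Rpl22, and in mouse Rpl22 is known to hold its level down. It had the lowest fitted difference between the 12 h responses of the cell lines. Over time its ratios were -0.75 and -0.36 in Ser585Gly, and 0.43 and 0.37 in wild type. Both arrays of each line agreed on the sign and the signs were opposite, but the fitted difference of the responses, -0.76 ± 0.18, did not pass (limma adjusted p = 0.421, and block-wise -0.67 with adjusted p = 0.138). Between the cell lines at 12 h the arrays gave 0.21 and -0.10, with a fitted -0.04. At 0 h they gave 0.96 and 0.27, and the fitted 0.71 ± 0.16 (1.64-fold) passed (limma adjusted p = 0.0477). Block-wise it was 0.59 (adjusted p = 0.0284). Without the array that stood apart it was 0.59 (adjusted p = 0.212), and block-wise 0.58 (adjusted p = 0.139). Rpl22 had -0.16 over time in Ser585Gly and -0.29 in wild type, and -0.16 between the lines at 0 h, and none passed.

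Rpl3l, the paralogue of Rpl3 that is known from striated muscle, was higher in Ser585Gly cells at 0 h. Its ratios were 0.47 and 0.18 at 12 h, and 0.59 and 0.31 at 0 h. The fitted ratio was 0.25 at 12 h (limma adjusted p = 0.332) and 0.52 ± 0.10 at 0 h (1.44-fold, adjusted p = 0.0293). Block-wise it was 0.37 at 0 h (adjusted p = 0.0239). Without the array that stood apart it was 0.57 (adjusted p = 0.0636), and block-wise 0.48 (adjusted p = 0.0297). Its probe was dim, at the brightness percentile 45. Rpl3 had -0.23 at 0 h and did not pass. The pairs Rpl39 with Rpl39l and Rps4x with Rps4l had no passing member, and the fitted ratios of these 4 genes lay between -0.29 and 0.08 in the comparisons of time and cell line. With dye swaps averaged, none of the 7 paralogues passed array-wise in any comparison of time or cell line. Block-wise with dye swaps averaged, Rpl7l1 and Rps27l passed over time in each line, and none passed between the lines.

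**Figure D3:**
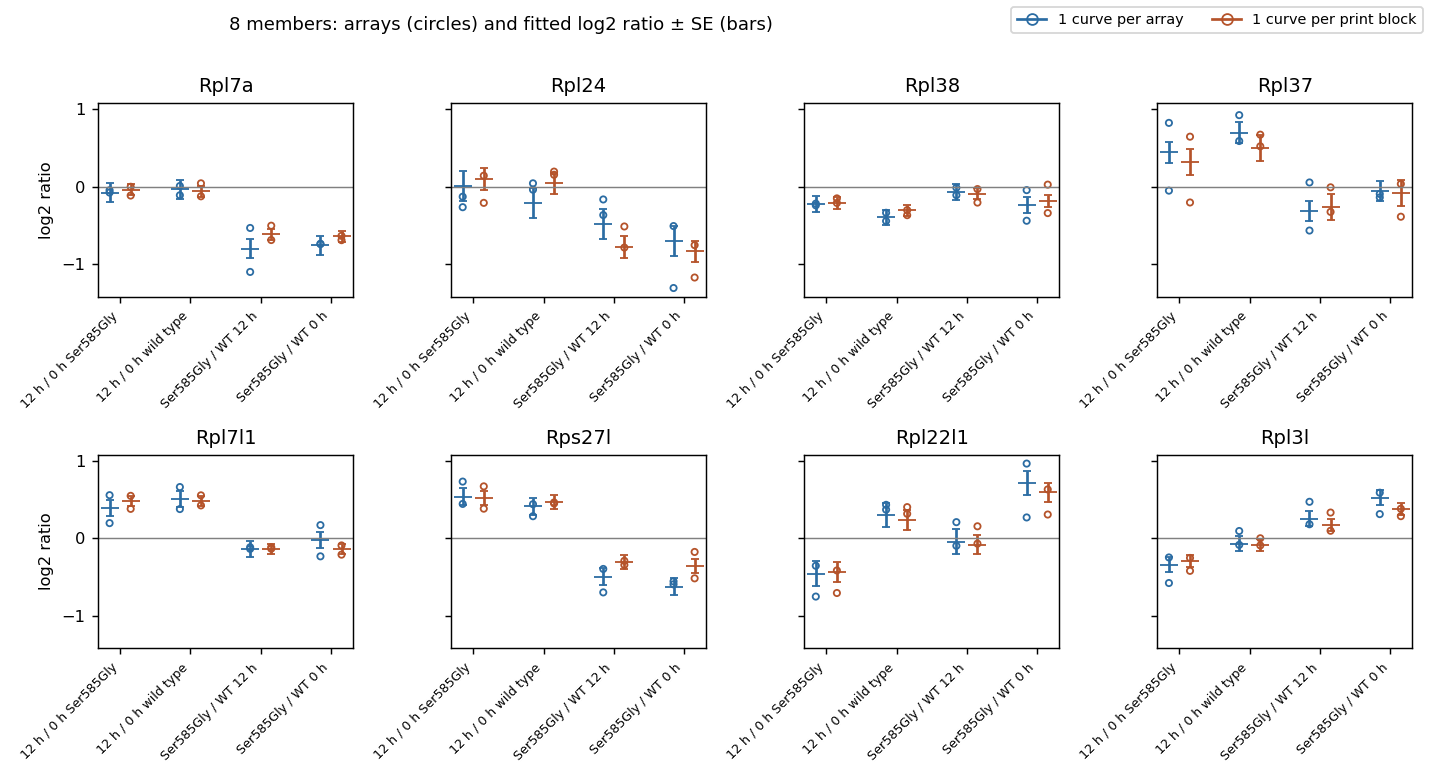
Log2 ratios of 8 members on single arrays (circles) and the fitted log2 ratio with its SE (bars) for the 4 comparisons, array-wise in blue and block-wise in orange. Rpl7a lies below 0 on all 4 arrays that set Ser585Gly against wild type, and Rpl22l1 has opposite signs over time in the 2 cell lines.

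Among the core proteins, 2 large-subunit genes passed over time in wild type, in opposite directions. Rpl37 had 0.92 and 0.59 on the arrays of wild type, with a fitted 0.70 ± 0.13 (1.62-fold, limma adjusted p = 0.0150). In Ser585Gly it had 0.82 and -0.05, with a fitted 0.44 (adjusted p = 0.0741). Its probe was dim, at the brightness percentile 15.1, unlike most of the family, and block-wise it was 0.50 in wild type (adjusted p = 0.0811). With dye swaps averaged it passed in wild type (adjusted p = 0.0329). Rpl38, which in mouse embryos is needed for the translation of Hox mRNAs, had -0.45 and -0.34 in wild type, with a fitted -0.40 ± 0.10 (0.759-fold, adjusted p = 0.0412). In Ser585Gly it had -0.22 and -0.24, with a fitted -0.23 (adjusted p = 0.208). Block-wise Rpl38 was -0.31 in wild type (adjusted p = 0.0250), and with dye swaps averaged array-wise it did not pass (adjusted p = 0.109).

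Block-wise scaling brought in further core proteins over time, which are named here after their values were seen. Rpl15 was higher in both lines, with 0.27 in Ser585Gly (limma adjusted p = 0.0219) and 0.22 in wild type (adjusted p = 0.0470). Its array-wise ratios on the direct arrays had mixed signs, with 0.15 and -0.08 in Ser585Gly and 0.15 and -0.01 in wild type. Rpl4 was higher in Ser585Gly, with 0.24 (adjusted p = 0.0441), while its array-wise ratios on the direct arrays there were -0.03 and -0.01. Rpl37a was lower in both, with -0.27 in Ser585Gly (adjusted p = 0.0484) and -0.38 in wild type (adjusted p = 0.0150). Array-wise it had -0.14 and -0.39. Rpl13 was lower in both, with -0.24 (adjusted p = 0.0466) and -0.28 (adjusted p = 0.0282). Array-wise, Rpl13 had 0.05 in Ser585Gly, so its sign there depended on the scaling, and -0.42 in wild type. Rpl35 (-0.34, adjusted p = 0.0203) and Rps20 (-0.22, adjusted p = 0.0447) were lower in Ser585Gly, as were the paralogues Rpl22l1 (-0.44, adjusted p = 0.0462) and Rpl3l (-0.30, adjusted p = 0.0315). Rpl4 was also lower in Ser585Gly than in wild type at 0 h, with -0.29 (adjusted p = 0.0364). Without the array that stood apart it had -0.29 (adjusted p = 0.141). Its array-wise ratios on the 2 arrays at 0 h were 0.07 and -0.33. With dye swaps averaged, adjusted p for Rpl15, Rpl4, Rpl13, Rpl35, Rps20 and Rpl37a was between 0.0521 and 0.160 in these comparisons, so none of these 6 passed.

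The other members that the rule names did not pass array-wise, though some had ratios as large as those that did. The acidic stalk, through which elongation factors dock on the ribosome, lay close to 0. In the 4 comparisons Rplp0 lay between -0.07 and 0.04, Rplp1 between -0.18 and -0.07 and Rplp2 between -0.16 and -0.02. These probes had a dye above 50000 units, where ratios are pressed towards 0, on 8, 3 and 5 arrays. A dimmer Rplp0 probe, above 50000 on no array, had -0.44 and -0.14 between the lines at 12 h, and -0.05 and -0.14 at 0 h. Over time it had -0.35 and 0.04 in Ser585Gly, and -0.28 and 0.06 in wild type. Rps3, which also acts in DNA repair, lay between -0.17 and 0.03. Rps14 and Rps19, whose human counterparts are reduced or mutated in anaemias of failed ribosome making, lay between -0.28 and -0.09 and between -0.21 and -0.08. Rpl11 lay between -0.20 and -0.06, and Rpl13a, which in human cells can leave the ribosome to silence inflammatory mRNAs, between -0.23 and 0.01. None of these members passed under either scaling on its brightest probe. Rpl27 was the highest core member at 12 h between the lines (0.23, limma adjusted p = 0.402), and Rpl34 the highest core member at 0 h (0.26, adjusted p = 0.241). Over time, Rpl35 had -0.40 (adjusted p = 0.0579) and Rpl26 had -0.35 (adjusted p = 0.102) in Ser585Gly, and Rpl13 had -0.42 (adjusted p = 0.303) and Rpl23 had -0.39 (adjusted p = 0.0908) in wild type. The difference of the 12 h responses was highest for Rpl36a (0.48, adjusted p = 0.722) and, below Rpl22l1, low for Rps23rg1 (-0.35, adjusted p = 0.648).

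Rps19bp1, which belongs to ribosome assembly by its known role as a partner of Rps19 and not to the ribosome, was higher at 12 h in both lines. Its ratios were 0.46 and 0.82 in Ser585Gly, and 0.34 and 0.55 in wild type. The fitted ratio was 0.56 ± 0.12 in Ser585Gly (1.48-fold, limma adjusted p = 0.0227) and 0.53 ± 0.12 in wild type (1.44-fold, adjusted p = 0.0316). Block-wise it was 0.59 (adjusted p = 0.000975) and 0.56 (adjusted p = 0.00138). With dye swaps averaged it did not pass array-wise (adjusted p = 0.0568 in Ser585Gly and 0.0723 in wild type). Between the cell lines it was 0.05 at 12 h and 0.01 at 0 h.

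Of 48 control wells named for a member, 24 with Empty or Hybrid in the name were left out. A second look at the same genes came from the other 24, positive-control wells that were not among the tested probes. Their brightness was among the values behind the recovered order, whereas their ratios were not. Rpl7a in its control well was also lower in Ser585Gly, with -0.33 and -0.65 at 12 h and -0.28 and -0.23 at 0 h. Its fitted values were -0.43 at 12 h and -0.32 at 0 h, and block-wise -0.40 and -0.51. Counted from the lowest of the 24 wells, Rpl7a had rank 2 at 12 h and rank 4 at 0 h, and block-wise rank 5 and rank 4. These wells had no test. Rpl38 in its control well had the opposite sign from its probe over time in wild type, with 0.33 against -0.40, and Rpl37a likewise had 0.15 against -0.39. Rpl23 had 0.61 in its well against -0.39 on its probe there, and Rps3a1 0.43 against -0.22. Wells and probes had the same array-wise sign for 13 of 24 genes in that comparison and for 16 in Ser585Gly over time. Between the lines they did for 21 at 12 h and 16 at 0 h. The median of the 24 wells for Ser585Gly against wild type was -0.08 at 12 h (22 below 0) and -0.12 at 0 h (15 below 0), where the member probes of the same genes had -0.13 and -0.23. For 12 h against 0 h the wells' median was -0.05 in Ser585Gly (16 below 0) and -0.02 in wild type (15 below 0), and block-wise it was above 0, at 0.11 in Ser585Gly and 0.06 in wild type. So the side of 0 on which the family lay over time differed between wells and probes block-wise, while between the cell lines it was below 0 in both. Across the 24 genes, wells and probes had an array-wise Pearson correlation of 0.35 at 12 h and 0.17 at 0 h between the lines. Over time it was 0.35 in Ser585Gly and -0.39 in wild type. Block-wise the correlation was 0.31 at 12 h and 0.28 at 0 h between the lines, and 0.44 in Ser585Gly and 0.02 in wild type over time. These genes share arrays and print blocks and are not replicates.

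**Figure D4:**
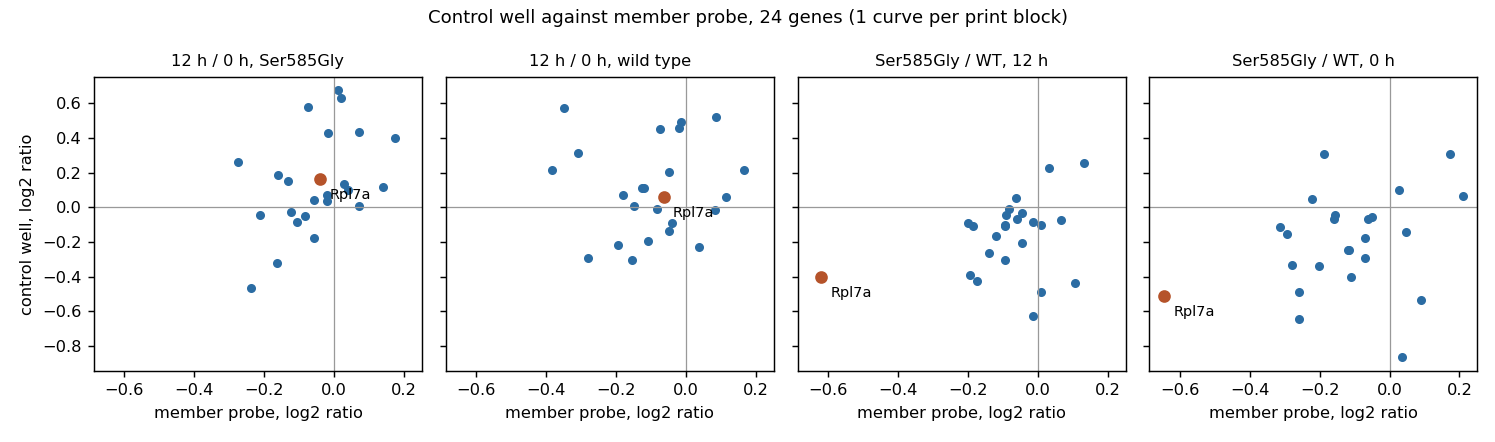
Fitted log2 ratio of the control well of each of 24 genes against that of its member probe, for the 4 comparisons, block-wise scaling. In the panels of Ser585Gly over wild type (WT), Rpl7a is negative on both axes, with -0.62 on the probe and -0.40 in the well at 12 h.

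Of the 8 members with 2 probes, 4 had a dimmer probe from one run of neighbouring accessions, in which 6 of the 30 placed probes carry symbols of small nucleolar RNAs. Small nucleolar RNAs guide the chemical modification of ribosomal RNA, and many of them lie in introns of ribosomal protein genes. The 4 are Rps16, Rpl27a, Rps12 and Rpl23, and the only probe of Rpl32 lies in the run too. For Rps16 the dimmer probe had -0.25 and -0.70 for Ser585Gly over wild type at 12 h, -0.68 and -1.0 at 0 h, and 0.82 and 0.46 over time in Ser585Gly. Its fitted ratio was -0.39 ± 0.10 at 12 h (limma adjusted p = 0.132), -0.92 ± 0.10 at 0 h (adjusted p = 0.00416) and 0.56 ± 0.10 over time in Ser585Gly (adjusted p = 0.0128). Block-wise it was -0.40 (adjusted p = 0.0313), -0.97 (adjusted p = 0.000810) and 0.57 (adjusted p = 0.00249). The brighter Rps16 probe had -0.06, -0.07 and -0.10 in these 3 comparisons. The dimmer Rpl27a probe had -0.72 at 0 h (adjusted p = 0.0184) and 0.49 over time in Ser585Gly (adjusted p = 0.0384), where the brighter one had -0.50 and -0.06. Block-wise the dimmer Rpl27a probe had -0.83 (adjusted p = 0.00109) and 0.56 (adjusted p = 0.00187), and its difference between the 12 h responses, 0.62, passed (adjusted p = 0.0428), while array-wise it was 0.56 (adjusted p = 0.428). The dimmer Rps12 probe had -0.60 at 0 h (adjusted p = 0.0241), against -0.09 in the brighter one, and block-wise -0.36 at 12 h (adjusted p = 0.0214) and -0.65 at 0 h (adjusted p = 0.00186). Without the array that stood apart the dimmer probes of Rps16, Rpl27a and Rps12 passed at 0 h under both scalings, and with dye swaps averaged array-wise that of Rps16 alone did (adjusted p = 0.0381). In the whole run, 3 of the 5 member probes and 9 of the 25 others passed as lower in Ser585Gly at 0 h, and none passed as higher, where 2% of all probes passed as lower and 2.07% as higher. Leaving out the array that stood apart, 3 and 4 passed as lower, with the share over all probes not given here. Block-wise 3 and 11 did (3 and 5 without that array), where 9.37% of all probes passed in either direction. With dye swaps averaged array-wise 1 and 5 did, where 167 of all 21779 probes were lower. The 6 probes with small nucleolar RNA symbols were all below 0, with a median of -0.43. Which transcript these probes report was not tested, and their values were kept out of the counts above wherever a brighter probe existed.

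More of the genes that build ribosomes than of the genes that make up ribosomes passed over time. Of 28 assembly factors, 17 rose at 12 h in Ser585Gly and 15 in wild type, and none fell, with medians of 0.67 and 0.46 (array-wise). Block-wise 19 and 18 rose, where 19.6% and 18.7% of all probes passed in either direction. With dye swaps averaged array-wise 15 and 10 rose, where 789 and 621 of all 21779 probes did. Of all probes, 5.73% rose and 4.72% fell in Ser585Gly, and 5.43% rose and 4.03% fell in wild type. Nop56, a core protein of the particles that methylate ribosomal RNA, had 1.35 in Ser585Gly and 0.89 in wild type, and Polr1b, a subunit of RNA polymerase I, had 1.58 and 0.85. Between the cell lines none passed at 12 h in either direction, with a median of -0.11 and 4 at an unadjusted p under 0.05 in limma, where 0.918% of all probes were higher and 0.799% lower. At 0 h 9 of the 28 were lower in Ser585Gly than in wild type and none was higher, with a median of -0.39, where 2% of all probes were lower. Block-wise 13 were lower, with a median of -0.29, where 9.37% of all probes passed in either direction. Leaving out the array that stood apart, 3 were lower, and block-wise 7, with the shares over all probes not given here. With dye swaps averaged 1 was lower, where 167 of all 21779 probes were, and block-wise 7. Beside these, the ribosomal proteins had 2 higher and 0 lower over time in Ser585Gly, and 2 higher and 1 lower in wild type, of 72.

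Other mRNAs known to carry the TOP motif, such as those of elongation factors, had medians of -0.02 in Ser585Gly and -0.15 in wild type over time. Of 14, none rose or fell in Ser585Gly over time (1 with an unadjusted p under 0.05), and 1 fell in wild type, Eif3f, a part of the initiation factor that loads the small subunit (-0.50, limma adjusted p = 0.0447). At 0 h 1 was lower in Ser585Gly, Hnrnpa1, an RNA-binding protein of splicing (-0.71, adjusted p = 0.0348), and without the array that stood apart none passed there under either scaling. Npm1 is in this list and among the assembly factors. Block-wise 3 of 14 rose over time in Ser585Gly, and in wild type 2 rose and 1 fell. Fau, which encodes a small-subunit protein outside the symbol rule, had -0.12 over time in both lines, and between the lines -0.07 at 12 h and -0.06 at 0 h. Of 72 mitochondrial ribosomal proteins, which serve the separate ribosome of mitochondria, 10 rose in Ser585Gly and 7 in wild type over time and none fell array-wise, with medians of 0.13 and 0.14. Block-wise 20 rose and 1 fell in each line, where 10.6% of all probes rose and 9.07% fell in Ser585Gly, and 10.1% rose and 8.66% fell in wild type. With dye swaps averaged array-wise 4 rose in Ser585Gly and 3 in wild type, where 789 and 621 of all 21779 probes did. These lists were drawn up with results of these data known.

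**Figure D5:**
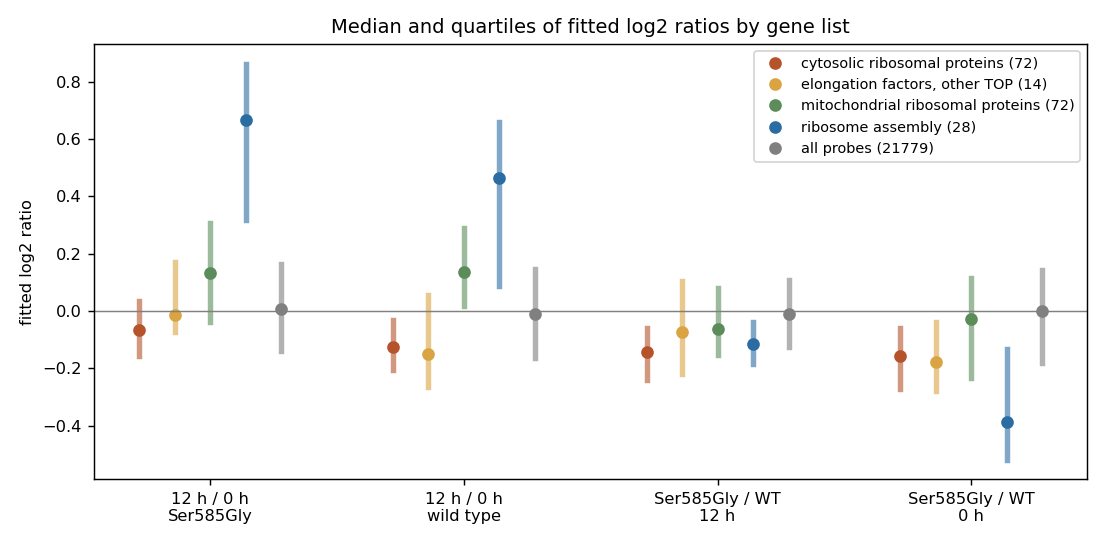
Median (point) and quartiles (bar) of the fitted log2 ratios of ribosomal proteins, other TOP mRNAs, mitochondrial ribosomal proteins, assembly factors and all probes in the 4 comparisons, array-wise scaling, with the number of each in the legend. Over time the assembly factors have medians of 0.67 in Ser585Gly and 0.46 in wild type, while the ribosomal proteins have -0.07 and -0.13.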

How the data were processed

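Per the file headers, the deposited scanner files hold intensities, the foreground and local background of both dyes. The authors' deposited value table holds log2 ratios of Cy5 over Cy3, for which the submitters' processing notes name limma without a version. Scanner files carry no probe names, so 21779 of 21797 non-control probes had to be placed on spots. Ratios over all 8 arrays placed 19056 of them, as mutual nearest matches. Another 2723 followed neighbouring probes in the deposited order. Of all placed probes, 90.3% lay closest in ratio to their own spot (0.00918% after shuffling). Mutual matches meet this by construction, so the share is no check of the placement. Of 1012 control rows with a coded position, 94.1% lay closest in ratio to the coded spot. The placed probes were named through a 24-pin print order recovered from the data and from the platform annotation. This gave 1 symbol to 16644 of them, several to 137 and none to 4998.

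Intensities were background-corrected (normexp, offset 50) and scaled by loess (span 0.3) in limma 3.58.1 under R 4.3.3. One fit over 8 arrays estimated mutation, time, interaction and dye effects, with Benjamini-Hochberg adjustment over 21779 probes. The brightest probe stood for a gene. The script was tested on simulated data. Alternatives were block-wise loess, dye swaps averaged, arrays left out, other backgrounds and the deposited table. Named genes are members past the threshold, the 3 highest and 3 lowest per comparison, and a set of well-known members and paralogue pairs. Members, lists and rules were chosen with earlier results of these data known.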

Additional observations from a re-analysis of the deposited data

Results flagged for a closer look

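For Rpl22l1, both arrays over time lay below 0 in Ser585Gly (mean -0.56) and both lay above 0 in wild type (mean 0.40), so that the responses differed by -0.95 between the direct arrays. The test of the difference in the joint fit gave -0.76 with an unadjusted p of 0.0030 and did not pass (limma adjusted p = 0.421). The pattern was the same block-wise. Rpl4, outside the rule for named genes and named after its values were seen, also had opposite signs over time, with -0.02 in Ser585Gly and 0.03 in wild type, and did not keep them block-wise.

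For 3 of the named members the 2 arrays of Ser585Gly over wild type at 12 h and the 2 at 0 h lay on opposite sides of 0. Rpl23 had a mean of 0.12 at 12 h and -0.16 at 0 h, a difference of 0.28. Rpl26 had -0.24 at 12 h and 0.05 at 0 h, a difference of -0.30. Rpl34 had -0.05 at 12 h and 0.34 at 0 h, a difference of -0.39. The tests of the difference did not pass (limma adjusted p = 0.659, 0.779 and 0.766), and none of the 3 kept the pattern block-wise. Rpl37a, also named after its values were seen, had 0.07 at 12 h and -0.48 at 0 h, its fitted difference did not pass (limma adjusted p = 0.769), and it did not keep the pattern block-wise. Of the 37 named genes, 4 had such opposite signs, and of all members 6.

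The 24 positive-control wells with a member's name and without Empty or Hybrid in it were used by no test. They lay at the brightness percentile 99.0 (median) under the recovered order and at 3.05 under the deposited one. Control brightness was among the values that led to the recovered order.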

How the results depend on the processing

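Of 339 values of 17 single-gene results under alternatives, 222 kept their call, 117 kept their direction without passing and 0 reversed. The 17 are results that passed in the main fit, including those of Rps19bp1 and of dimmer probes. Results that passed only block-wise are not counted. The alternatives reuse the same arrays, so a kept direction was likely beforehand and is no independent check. No paired analysis was possible because no replicate number in the labels pairs samples across comparisons. The dye swaps of 1 comparison were averaged or taken as a block instead. The count of members past the threshold is given in the order 12 h against 0 h in Ser585Gly, the same in wild type, Ser585Gly against wild type at 12 h, and that at 0 h; it was 2, 3, 1 and 4. It was 0, 1, 1 and 1 with dye swaps averaged; 10, 7, 5 and 16 with the pair as a random block (correlation -0.33); 10, 6, 2 and 5 block-wise; 10, 6, 7 and 10 on the deposited table; 1, 1, 0 and 0 on the direct arrays alone. It was 8, 6 and 3 in the first 3 comparisons under the deposited print order. Median centring alone left 1 in wild type, no background correction gave 2 at 12 h, and leaving out dim probes gave 5 in Ser585Gly and 2 at 12 h. Alternatives added after seeing the data gave 7, 8, 2 and 2 block-wise without the array that stood apart, and 2 at 0 h block-wise with dye swaps averaged. Leaving out 1 array gave 0 to 6, 0 to 6, 0 to 2 and 0 to 3. The difference of the responses had 0 throughout. The share of all probes that passed moved with the setting too. At 0 h it was 4.07% array-wise and 9.37% block-wise, and over time in wild type 9.46% and 18.7%. For the other settings that share is not given here, so a change in these counts cannot be read as particular to the members.

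The members' median (-0.065, -0.125, -0.144 and -0.157, and 0.037 for the difference) was -0.0607, -0.0769, -0.0784 and 0.0243 block-wise in the last 4, with or without averaging. It was -0.0417, -0.0534, -0.119, -0.113 and 0.0169 on the deposited table. Median centring gave -0.0333 in Ser585Gly, -0.186 at 0 h and 0.0842 for the difference. Under the deposited print order it was -0.0635 in wild type, 0.0254 at 12 h and 0.0257 at 0 h (both reversed) and 0.00309 for the difference. That order puts other probes under the members' names. Loess without weight on the members' probes gave -0.159, -0.166, -0.189 and 0.0511 in the last 4. Block-wise without the array that stood apart it was -0.0653, -0.0744, -0.0795 and 0.0189. The direct arrays gave -0.117 at 12 h and -0.142 at 0 h, leaving out dim probes -0.159 at 0 h and 0.0477 for the difference, and the mean over a gene's probes -0.162 and 0.0264. Leaving out 1 array gave -0.0806 to -0.0515, -0.134 to -0.106, -0.152 to -0.118, -0.181 to -0.146, and 0.00322 to 0.0509. Adjusted p for Rpl7a ran from 0.0006 to 0.163 at 12 h and from 0.0011 to 0.105 at 0 h. The 2 arrays per comparison and the 1 RNA per group limit the precision.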
